A study of Homo sapiens with 12 samples.

Results

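Ribosome biogenesis is the process by which the cell makes its ribosomes. RNA polymerase I transcribes the ribosomal RNA precursor in the nucleolus, guide-RNA particles of the box C/D and box H/ACA classes modify and help to cut it, and a succession of assembly factors folds it with ribosomal proteins into the small and the large subunit. The genes of these factors are known as targets of MYC, and MYC itself is a known target of Wnt signaling in the intestinal crypt, where proliferating progenitor cells have a high demand for ribosomes. The genes described here are a set of 40 nucleolar and RNA polymerase I factors. The rule lists them by name and function and uses no measured value, but it was written with earlier results of these arrays known. Through the RefSeq accessions of the probes, 39 of the 40 had at least 1 probe, with 63 probes on 72 features, among 17240 genes with a symbol. NOP16 had no probe. All 39 were well-measured on the arrays with a reference channel, meaning a signal over 2-fold the local background in either channel on all 10 of them, and 38 were well-measured on both arrays of the β-catenin pair, where PNO1 was not. A gene's value is the mean of its probes. By role the 40 fall into 8 proteins of the box C/D and box H/ACA particles, 3 abundant nucleolar proteins, 12 factors of the small subunit, 12 of the large subunit, and 5 of RNA polymerase I transcription.

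The measurements are log2 ratios from 12 dual-color arrays, 6 with RNA of Ls174T, a colorectal cancer line whose mutant β-catenin keeps the Wnt pathway active, and 6 with RNA of HEK293T cells, a human embryonic kidney line with an intact, inducible pathway. All cells were transfected with a pool of siRNAs (15 nM, 72 h), the controls with a non-targeting pool. In Ls174T cells the targets were β-catenin, MLLT10/AF10 (a partner of the histone methyltransferase DOT1L), BRG1 (the SWI/SNF ATPase encoded by SMARCA4), and p300 (the acetyltransferase encoded by EP300). The HEK293T cells were kept for 9 h in medium with Wnt3A, either with si-control or with 1 of the proteins MLLT10/AF10, DOT1L, BRG1, and p300 depleted, or with si-control for 9 h in control medium, and each condition is on 1 array. The β-catenin-depleted RNA was set directly against si-control RNA on 2 arrays with exchanged dyes, which count as 1 replicate, and all other RNAs against universal human reference RNA. Each condition is 1 culture, so no difference has a replicate check, no p-values are given, and the error given is that of the scanner program for the ratio.

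The siRNA targets were lower by log2 changes of −2.60 for CTNNB1, −1.42 and −1.76 for MLLT10 (Ls174T and HEK293T), −1.07 for DOT1L, −2.42 and −3.97 for SMARCA4, and −0.95 and −2.75 for EP300. Of the markers of colorectal epithelium, 9 of 9 were well above background on the Ls174T si-control array, and the 5 that were well-measured on all reference arrays had a higher level there than on the HEK293T control medium array. CDX2 was high in both lines (4.31 and 3.87). Of 6 genes listed for HEK293T cells, 5 were well above background in that line, 4 of the 5 measured on all arrays had a higher level there than in Ls174T cells, and WT1 was higher in Ls174T cells (2.36 against −0.13). Well-measured features numbered 27717 to 31011 on the reference arrays and 18104 and 23077 on the pair. Replicate probes varied by a CV of 49.2% and 49.9% in the 2 channels of the second array of the pair, by 19.2% and 17.7% on the HEK293T BRG1 array, and by 7.97% to 12.9% on the other reference arrays. All 670 spots of the ribosome biogenesis genes on the reference arrays were well above background in the sample channel, and none was saturated (0 spots). MYC changed by −1.15, −0.27, −0.60, and −1.25 after depletion of β-catenin, MLLT10/AF10, BRG1, and p300 in Ls174T cells, and in HEK293T cells by −0.25 after Wnt3A and, for the depletions of MLLT10/AF10 and DOT1L, by 0.20 and 0.39, and of BRG1 and p300, by 0.23 and 0.30. Its part in the values below was not tested.

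The sequence CACGTG, the E-box that MYC and related factors are known to bind, was looked for in the promoters, since the members moved together in 2 of the comparisons described below. RefSeq windows of build GRCh38.p14, from 250 bases before to 50 bases after the start of a gene, were given for 33 of the 40 genes. The other 7 were NOP58, NOLC1, RRP12, BOP1, RRS1, DDX18, and TCOF1. CACGTG, which reads the same on both strands, was in 14 of the 33 windows (42.4%), against 8.77% of all 27305 genes with a window and 12.4% of the 10283 such genes measured on the arrays. In all 14 genes a copy began within 50 bases of the start, and 5.21% of the measured genes had one so placed. It was also in 35.4% of the windows of 82 other ribosome biogenesis factors, in 9.09% of those of 11 other RNA polymerase I factors, and in 6.35% of those of 63 cytosolic ribosomal proteins. The TCF motif CTTTGAT, searched on both strands, was in 1 of the 33 windows (POLR1A, 3.03%), against 2.17% of the measured genes. The 30 bases around the E-box are shown for the 10 genes described array by array below that carry it, 5′ to 3′ on the strand of the gene, with the E-box in capitals.
FBL (chr19:39846356-39846385, minus strand): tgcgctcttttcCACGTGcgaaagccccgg
GAR1 (chr4:109815781-109815810, plus strand): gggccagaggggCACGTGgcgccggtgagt
GNL3 (chr3:52686026-52686055, plus strand): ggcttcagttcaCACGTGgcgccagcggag
WDR43 (chr2:28894658-28894687, plus strand): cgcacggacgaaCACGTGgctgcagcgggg
NOP14 (chr4:2963374-2963403, minus strand): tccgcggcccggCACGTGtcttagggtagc
UTP20 (chr12:101280083-101280112, plus strand): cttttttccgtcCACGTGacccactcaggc
BYSL (chr6:41921515-41921544, plus strand): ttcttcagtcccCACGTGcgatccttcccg
NOP2 (chr12:6568242-6568271, minus strand): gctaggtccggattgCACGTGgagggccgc
PES1 (chr22:30591880-30591909, minus strand): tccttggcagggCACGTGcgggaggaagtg
DDX21 (chr10:68956604-68956633, plus strand): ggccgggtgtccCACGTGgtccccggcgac
In UTP20 and DDX21 the E-box begins 10 and 31 bases before the start, and in the other 8 genes it begins at base 4 (WDR43) to base 36 (NOP2) of the transcript. Flanking bases differ between the genes. A match to these letters is a description of the sequence and not of a bound factor.

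In Ls174T cells the ribosome biogenesis genes were lower after depletion of β-catenin and of p300, and stayed close to the control after depletion of MLLT10/AF10 and of BRG1. After β-catenin depletion the change was below 0 for 38 of 38 genes, against 50.8% of all 9439 genes measured there, with a median of −0.43 on the log2 scale (1.34-fold lower) against −0.01 over all genes. After p300 depletion it was below 0 for 37 of 39 genes, against 45.5% of all 12723 genes, with a median of −0.36 (1.28-fold lower) against 0.04. The shift was one of many genes by a small amount. No gene of the set was lower by more than 2-fold in any of the 4 Ls174T comparisons (0 of 38 or of 39 genes), while 1.21%, 0.723%, 0.912%, and 1.2% of all genes were after depletion of β-catenin, MLLT10/AF10, BRG1, and p300. After β-catenin and p300 depletion 31 of 38 and 34 of 39 lay below the lower quartile of all genes. The median after MLLT10/AF10 depletion was −0.03 (29 of 39 below 0, against 52.4% of all genes), and after BRG1 depletion −0.03 (21 of 39, against 50.7%). The arrays measure RNA of whole cultures at equal labeled amounts, so fewer cells with a high level and less RNA per cell cannot be told apart, and a change in total RNA per cell is not seen.

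**Figure D1:**
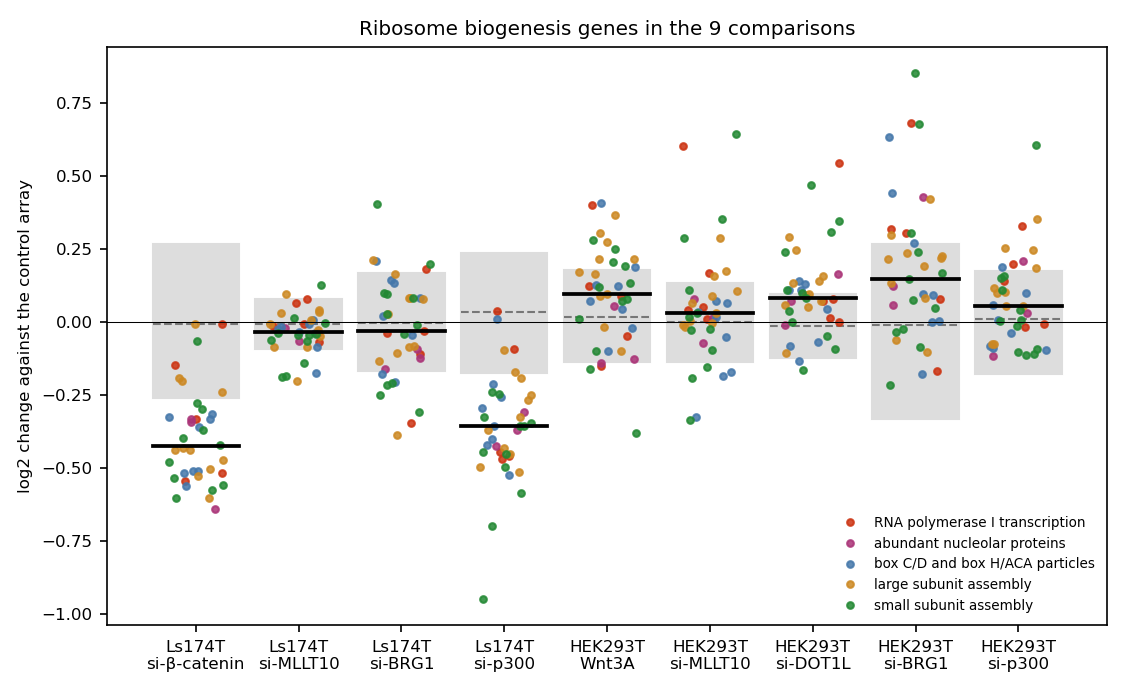
Log2 change of each ribosome biogenesis gene (points, colored by role) in the 9 comparisons, with the median of the genes (black line) and the median (dashed) and middle 50% (grey) of all genes measured. The genes lie mostly below the grey range after β-catenin and p300 depletion in Ls174T cells (medians −0.43 and −0.36) and around or above 0 in HEK293T cells.

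The 2 arrays of the β-catenin pair measured the same RNAs with the dyes exchanged, so they show the error of the measurement and not that between cultures. The median of the 38 genes was −0.43 on array 1 and −0.42 on array 2, with 37 genes below 0 on each and 36 on both, against 41.5% of all genes below 0 on both. The exceptions were EBNA1BP2 (0.05 and −0.06) and TCOF1 (−0.10 and 0.09). The difference between the arrays had an SD of 0.17 over the genes and was largest for NOP14 (−0.61 and −0.19). The mean lay below 0 by more than the program error in 35 of the 38 genes, where that error had a median of 0.15. That share was not counted over all genes. NPM1 (−0.64, program error 0.06), NIP7 (−0.60, program error 0.15), and WDR43 (−0.60, program error 0.15) were lower by more than 1.5-fold, as were 6.53% of all genes. At the other end lay EBNA1BP2 (−0.01), a large subunit factor, and TCOF1 (−0.01), the treacle protein of the nucleolus.

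**Figure D2:**
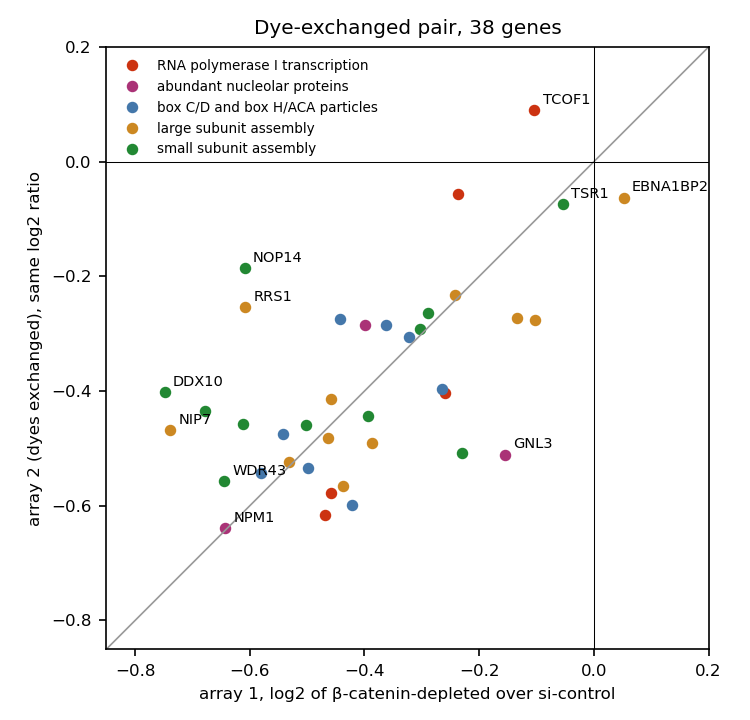
Log2 ratio of β-catenin-depleted over si-control RNA on array 1 (x axis) and on the dye-exchanged array 2 (y axis) for the 38 genes, colored by role, with the line of equality. Of the 38 points, 36 lie below 0 on both axes, around medians of −0.43 and −0.42.

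For p300 the slide matters, because the si-control and MLLT10/AF10 arrays of Ls174T cells share 1 slide and the BRG1 and p300 arrays another. Within the second slide the genes were lower on the p300 array than on the BRG1 array by a median of −0.32, with 38 of 39 below 0 (all genes 0.03 and 45.3%), and PES1 (0.20) was the exception. Against the MLLT10/AF10 array of the first slide the median was −0.33, again with 38 of 39 below 0, against 43.9% of all genes. On the 4 Ls174T reference arrays the p300 array had the lowest level of 36 of the 39 genes. That share was not counted over all genes, whose median level was 0.22 on the p300 array and 0.20 on each of the others. The reference channel, which holds the same RNA on every array, changed by a median of −0.09 over the 39 genes between the si-control and p300 arrays. Between the BRG1 and p300 arrays it changed by −0.05. Over the 4 arrays the genes had a median SD of 0.25 in the sample channel and of 0.08 in the reference channel. The change lay below 0 by more than the program error, with a median of 0.29, in 28 of 39 genes, a share that was not counted over all genes. The β-catenin and the p300 minus BRG1 differences use no array in common, and 37 of the 38 genes measured in both were below 0 in both, against 23.9% of all genes. NOP14, UTP15, and WDR3 were lower by more than 1.5-fold after p300 depletion, as were 4.35% of all genes. For NOP14 (−0.95) the sample channel changed by −0.31 and the reference channel by 0.63, whereas for UTP15 (−0.70) the channels changed by −0.61 and 0.08 and for WDR3 (−0.59) by −0.75 and −0.17. The least changed were POLR1A (0.04) and NOP58 (0.01).

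**Figure D3:**
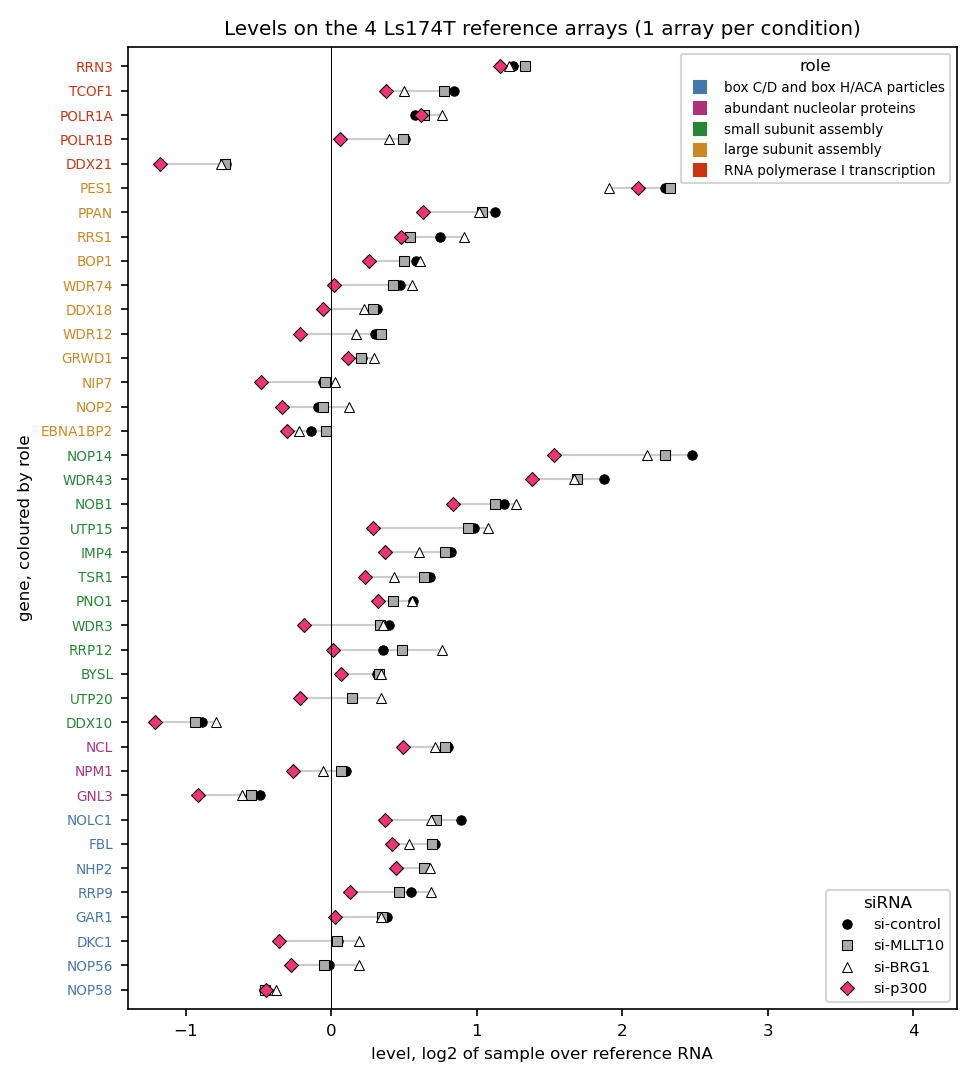
Level of each gene (log2 of sample over reference RNA) on the 4 Ls174T reference arrays, 1 array per siRNA, ordered by role (label color) and by the si-control level. The p300 array (diamonds) has the lowest level of 36 of the 39 genes, with a median of 0.11 against 0.51, 0.47, and 0.50 on the other 3. Over all genes the median is 0.22 on the p300 array and 0.20 on each of the other 3.

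Single genes are given below by role. The 4 levels in Ls174T cells are those on the si-control, MLLT10/AF10, BRG1, and p300 arrays, in that order, as log2 of sample over reference RNA. The pair values are log2 ratios of β-catenin-depleted over si-control RNA on arrays 1 and 2. Levels of different genes are ratios to the same reference RNA and do not give the order of their transcript amounts.

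All 8 proteins of the box C/D and box H/ACA particles were below 0 after β-catenin depletion (median −0.43, from −0.56 for DKC1 to −0.31 for GAR1), and 7 of 8 after p300 depletion (median −0.32). NOP56, a core protein of the box C/D particle, had levels of −0.02, −0.05, 0.19, and −0.27 in Ls174T cells and pair values of −0.44 and −0.27. NOP58, its partner in the same particle, had levels of −0.46, −0.46, −0.38, and −0.45 and pair values of −0.36 and −0.28. NOP58 was thus lower on both arrays of the pair and was not lower on the p300 array. Fibrillarin, the RNA methyltransferase of the particle encoded by FBL, had levels of 0.71, 0.69, 0.53, and 0.42 and pair values of −0.26 and −0.40. DKC1, the pseudouridine synthase dyskerin of the box H/ACA particle, had levels of 0.04, 0.04, 0.19, and −0.36 and pair values of −0.58 and −0.54. GAR1, another core protein of that particle, had levels of 0.38, 0.35, 0.34, and 0.03 and pair values of −0.32 and −0.31. For FBL, DKC1, and GAR1 the p300 array was the lowest of the 4, and for DKC1 the BRG1 array was the highest. NOLC1, a nucleolar protein that binds both kinds of particle, had levels of 0.89, 0.72, 0.69, and 0.37 and pair values of −0.54 and −0.48. It had the lowest change of this group after p300 depletion (−0.52), and its change after BRG1 depletion was −0.21. The others, RRP9 and NHP2, changed by −0.51 and −0.52 after β-catenin and by −0.42 and −0.21 after p300 depletion.

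The abundant nucleolar proteins were all below 0 after both depletions (3 of 3, medians −0.34 and −0.37). Nucleolin, encoded by NCL, had levels of 0.80, 0.78, 0.71, and 0.49 in Ls174T cells and pair values of −0.40 and −0.29. NPM1, the nucleolar chaperone nucleophosmin, had levels of 0.10, 0.07, −0.06, and −0.27 and pair values of −0.64 and −0.64, so that both arrays of the pair gave the same value. GNL3, the nucleolar GTPase nucleostemin, had levels of −0.49, −0.55, −0.61, and −0.91 and pair values of −0.15 and −0.51. The pair arrays differed more for GNL3 than for NPM1 and NCL, and the order of the 4 reference arrays was the same in all 3 genes, with si-control the highest and p300 the lowest. NPM1 has near-identical copies elsewhere in the genome and the probe sequences were not used here, so its value may include them. After p300 depletion the sample channel of NPM1 changed by 0.02 and its reference channel by 0.37.

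All 11 factors of the small subunit measured on the pair were below 0 there (median −0.42), and 12 of 12 after p300 depletion (median −0.40). WDR43, a factor of the early small-subunit complex, had levels of 1.88, 1.69, 1.67, and 1.38 in Ls174T cells and pair values of −0.65 and −0.56. UTP20, a large scaffold of the same complex, had levels of 0.14, 0.14, 0.34, and −0.21 and pair values of −0.61 and −0.46. RRP12, which takes part in late maturation and export, had levels of 0.36, 0.48, 0.76, and 0.01 and pair values of −0.30 and −0.29. RRP12 was the highest gene of the set after depletion of MLLT10/AF10 (0.13) and of BRG1 (0.40, program error 0.30, followed by NOP2 at 0.21), and it was lower after depletion of β-catenin and of p300. BYSL, the assembly factor bystin, had levels of 0.31, 0.33, 0.34, and 0.07 and pair values of −0.39 and −0.44. NOB1, the endonuclease that makes the last cut of the small-subunit RNA, had levels of 1.19, 1.13, 1.27, and 0.83 and pair values of −0.50 and −0.46. In UTP20, BYSL, and NOB1 the si-control, MLLT10/AF10, and BRG1 levels lay within 0.20 of each other, with the p300 level below all of them. Among the others, NOP14, WDR3, UTP15, IMP4, DDX10, and TSR1 changed by −0.58 (DDX10) to −0.06 (TSR1) after β-catenin depletion, and with PNO1 by −0.95 (NOP14) to −0.24 (PNO1) after p300 depletion. TSR1, a late small-subunit factor, was close to 0 on both arrays of the pair (−0.05 and −0.07) and lower on the p300 array (−0.44).

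All 11 measured factors of the large subunit were below 0 after both depletions (medians −0.44 and −0.33). BOP1, PES1, and WDR12 form 1 complex that is needed for maturation of the large subunit. BOP1 had levels of 0.58, 0.50, 0.61, and 0.26 in Ls174T cells and pair values of −0.46 and −0.41. PES1 had levels of 2.29, 2.33, 1.91, and 2.10 and pair values of −0.10 and −0.28. WDR12 had levels of 0.30, 0.34, 0.17, and −0.21 and pair values of −0.13 and −0.27. Among the 3, BOP1 was lowest after β-catenin depletion (−0.44, against −0.19 and −0.20) and WDR12 after p300 depletion (−0.51, against −0.33 and −0.19). PES1 was the gene of the set with the lowest change after BRG1 depletion (−0.39, program error 0.29), and its 2 probes gave −0.57 and −0.20 there. Its sample channel changed by −0.04 and its reference channel by 0.32 in that comparison. NOP2, an RNA methyltransferase known as a proliferation antigen, had levels of −0.09, −0.06, 0.12, and −0.34 and pair values of −0.39 and −0.49. PPAN, the assembly factor peter pan, had levels of 1.12, 1.04, 1.02, and 0.63 and pair values of −0.24 and −0.23. NIP7, which acts in pre-RNA processing, had levels of −0.06, −0.05, 0.02, and −0.49 and pair values of −0.74 and −0.47. NOP2 and NIP7 were highest on the BRG1 array and lowest on the p300 array. The other 5 (WDR74, RRS1, EBNA1BP2, GRWD1, and DDX18) changed by −0.53 (DDX18) to −0.01 (EBNA1BP2) after β-catenin depletion and by −0.45 (WDR74) to −0.10 (GRWD1) after p300 depletion. RRS1 had the lowest change of the set after MLLT10/AF10 depletion (−0.20, program error 0.30), followed by WDR43 (−0.19), and EBNA1BP2 (0.10) was next to RRP12 at the other end. These changes lay within the program error, which none of the 39 genes exceeded in that comparison (0 of 39). The share of all genes that exceeded it was not counted.

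In the RNA polymerase I group, 5 of 5 were below 0 after β-catenin depletion (median −0.33) and 4 of 5 after p300 depletion (median −0.45). POLR1A, the largest subunit of the polymerase, had levels of 0.58, 0.64, 0.76, and 0.61 in Ls174T cells and pair values of −0.26 and −0.40. POLR1B, the second-largest subunit, had levels of 0.51, 0.49, 0.40, and 0.06 and pair values of −0.46 and −0.58. Both core subunits thus lay below 0 on the pair, and after p300 depletion POLR1B changed by −0.45 and POLR1A by 0.04. RRN3, the initiation factor that brings the polymerase to the promoter, had levels of 1.25, 1.33, 1.22, and 1.16 and pair values of −0.24 and −0.06. TCOF1 had levels of 0.85, 0.78, 0.50, and 0.38 and pair values of −0.10 and 0.09. DDX21, a nucleolar RNA helicase, had levels of −0.72, −0.73, −0.76, and −1.18 and pair values of −0.47 and −0.62. TCOF1 was close to 0 on the pair, and its levels were lower on both arrays of the BRG1 and p300 slide (changes of −0.34 and −0.47). RRN3 has near-identical copies in the genome and its 3 probes disagreed (−0.26 to 0.16 after p300 depletion), so its value is uncertain.

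In HEK293T cells the medians of the genes lay above 0 in all 5 comparisons and close to those of all genes. After 9 h of Wnt3A the median was 0.10 against 0.02 over all genes, with 28 of 39 genes above 0 against 53% of all genes, and no gene passed 1.5-fold (0 of 39, against 3.74% of all genes higher and 1.45% lower past it), while 2 did with normexp and loess and 1 did with the sample channel alone. RRP9 (0.41, program error 0.30) and TCOF1 (0.40, program error 0.30) were the highest, and UTP20 (−0.38, program error 0.30) and NOP14 (−0.16) the lowest. The sample and reference channels changed by 0.19 and −0.24 for RRP9 and by 0.44 and 0.01 for TCOF1. For UTP20 they changed by −0.46 and −0.11, and for NOP14 by 0.07 and 0.20. With background correction by normexp and loess the median of the genes was −0.01 and that of all genes −0.16, so that the genes lay above the others under both ways. With the sample channel alone the medians were 0.09 and 0.07, and the distance from all genes fell from 0.08 to 0.02. The Wnt3A si-control array is alone on its slide, so slide and condition cannot be told apart in this comparison and in the 4 depletions that use this array.

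Against the Wnt3A si-control array, the medians of the 39 genes were 0.03 after depletion of MLLT10/AF10 (25 above 0, against 50.1% of all genes), 0.08 after DOT1L (31, against 46.9%), 0.15 after BRG1 (31, against 48.9%), and 0.05 after p300 (25, against 51.9%), with all-gene medians of −0.01 to 0.01. These 4 comparisons share their control array. With normexp and loess the median after BRG1 depletion was 0.13 against 0.11 over all genes, so that the distance of the genes from all genes fell from 0.16 to 0.028. That distance rose to 0.28 with the sample channel alone and to 0.29 with the control medium array as control. In the remaining alternatives it ran from 0.14 to 0.19. Past 1.5-fold, NOP14 (0.64) and POLR1A (0.60) were higher after MLLT10/AF10 depletion (1.93% of all genes were), UTP20 (0.85), RRN3 (0.68), UTP15 (0.68), and DKC1 (0.64) after BRG1 depletion (7.48%), NOP14 (0.61) after p300 depletion (2.63%), and no gene after DOT1L depletion (0 of 39, against 1.08%). With normexp and loess no gene passed in either direction after MLLT10/AF10 or p300 depletion (0 of 39 each). With the sample channel alone 1 gene passed after MLLT10/AF10 depletion, 1 after DOT1L depletion, and 0 after p300 depletion. Both times the gene was NPM1, and it was lower (−0.68 and −0.78). The highest after DOT1L depletion were POLR1A (0.54) and NOP14 (0.47), and PPAN (0.35) was second to NOP14 after p300 depletion. By the ratios to reference RNA, no gene was lower past 1.5-fold in any of the 4 depletions (0 of 39 each). Of all genes 3.13%, 3.25%, 13.2%, and 7.25% were, in the order above. The channels differ between these cases. For UTP20 after BRG1 depletion the sample channel changed by 1.15 and the reference channel by 0.33, for DKC1 by 0.85 and 0.25, for RRN3 by 0.80 and 0.15, and for UTP15 by 0.46 and −0.18. For NOP14 the sample channel changed by 0.23 and the reference channel by −0.41 after MLLT10/AF10 depletion, and by 0.03 and −0.56 after p300 depletion. For POLR1A after MLLT10/AF10 depletion these values were 0.07 and −0.53, and after DOT1L depletion (0.54) they were −0.02 and −0.57. Against the Wnt3A si-control array, the high ratios of NOP14 and POLR1A thus came with a lower reference signal, and those of UTP20, DKC1, and RRN3 with a higher sample signal. For POLR1A the reference signal of that control array was itself 0.46 above that of the control medium array. The lowest genes were WDR43 (−0.34) and NOLC1 (−0.32) after MLLT10/AF10, PNO1 (−0.16) and RRP9 (−0.13) after DOT1L, NOB1 (−0.21) and RRP9 (−0.18) after BRG1, and GNL3 (−0.12) and UTP15 (−0.11) after p300 depletion. The 2 probes of UTP15 gave −0.63 and 0.40 in the last comparison.

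The HEK293T arrays of MLLT10/AF10 and DOT1L depletion share a slide with the control medium array. Against it, within the slide, the medians were 0.13 (24 of 39 genes above 0, against 52.8% of all genes) and 0.15 (36 of 39, against 48.8%), and the MLLT10/AF10 array lay below the DOT1L array by a median of −0.05. POLR1A was the highest gene against control medium on both arrays (0.69 and 0.63). The lowest reference-channel changes of any of the 39 genes were −0.20 and −0.18 there. On the slide that holds the BRG1 and p300 arrays the p300 minus BRG1 median was −0.09 (27 of 39 below 0, against 47.5% of all genes). Over the 6 HEK293T arrays the control medium array had the lowest level of 19 of the 39 genes and the BRG1 array the highest of 21. These shares were not counted over all genes, so they cannot be read as a trait of the 39 genes. Among the HEK293T depletions, that of BRG1 had the widest quartiles of change over all genes (−0.33 and 0.27). The median SD of the 39 genes over the 6 arrays was 0.17 in the sample channel and 0.09 in the reference channel.

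**Figure D4:**
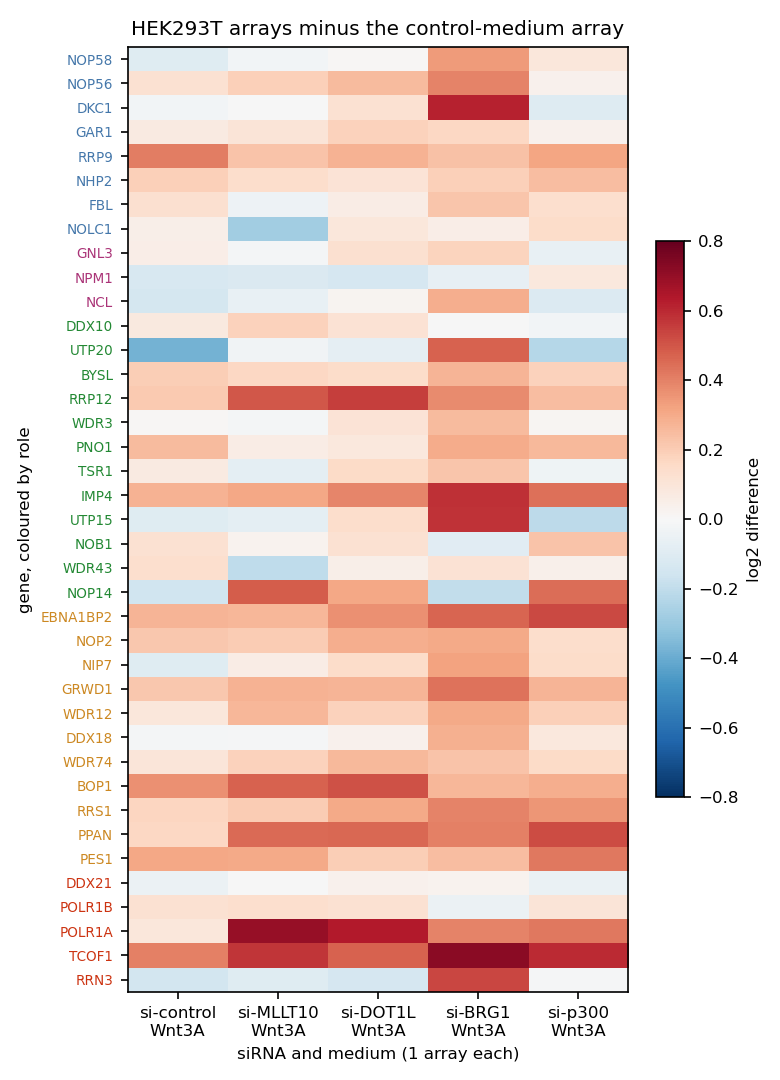
Difference in level (log2) of each gene between the 5 Wnt3A arrays of HEK293T cells and the control medium array, ordered by role (label color), 1 array per column. Red is higher and blue lower than in control medium, and the medians of the 5 columns lie above 0, with UTP20 on the si-control array the lowest value (−0.38).

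The 6 HEK293T levels of single genes follow, in the order si-control in control medium, si-control with Wnt3A, and then the depletions with Wnt3A (MLLT10/AF10, DOT1L, BRG1, p300), as log2 of sample over reference RNA. Of the box C/D proteins, NOP56 had levels of 0.41, 0.53, 0.60, 0.66, 0.80, and 0.44. NOP58 had 0.12, 0.02, 0.10, 0.13, 0.46, and 0.21. FBL had 0.58, 0.71, 0.54, 0.64, 0.81, and 0.72. In these 3 genes the BRG1 array was the highest of the 6, and the other 5 lay within a narrower band. Of the box H/ACA proteins, DKC1 had 0.72, 0.70, 0.72, 0.84, 1.34, and 0.62. GAR1 had 0.64, 0.72, 0.75, 0.83, 0.81, and 0.68. NOLC1, which binds both kinds of particle, had 1.02, 1.07, 0.74, 1.11, 1.07, and 1.16. DKC1 stood apart on the BRG1 array and NOLC1, in the low direction, on the MLLT10/AF10 array. Of the abundant nucleolar proteins, NCL had 1.07, 0.93, 1.01, 1.10, 1.36, and 0.96. NPM1 had 0.82, 0.69, 0.70, 0.68, 0.75, and 0.90. GNL3 had 0.51, 0.57, 0.49, 0.64, 0.69, and 0.45. By these ratios NPM1 was highest on the p300 array and the other 2 genes on the BRG1 array, and the 2 probes of NCL gave changes of 0.00 and 0.86 after BRG1 depletion. Against the Wnt3A si-control array, the sample and reference channels changed there by −0.19 and −0.59 for NCL and by −0.41 and −0.50 for GNL3. For NPM1 on the p300 array they changed by −0.51 and −0.70. In these cases the sample signal was lower and the reference signal lower still.

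Of the small-subunit factors in HEK293T cells, WDR43 had levels of 1.07, 1.21, 0.87, 1.12, 1.19, and 1.12. UTP20 had 0.79, 0.41, 0.76, 0.72, 1.26, and 0.56. RRP12 had 0.92, 1.12, 1.41, 1.47, 1.29, and 1.17. UTP20 was lowest on the Wnt3A si-control array, the control of the 4 depletions, and highest on the BRG1 array, and RRP12 was lowest in control medium. BYSL had 0.58, 0.77, 0.74, 0.72, 0.85, and 0.76. NOB1 had 1.16, 1.28, 1.18, 1.28, 1.06, and 1.39. Both had their 6 levels close together, with NOB1 lowest on the BRG1 array. NOP14 and UTP15, which passed 1.5-fold, had 2.50, 2.35, 2.99, 2.81, 2.31, and 2.95 and 0.85, 0.75, 0.77, 0.99, 1.43, and 0.64. NOP14 was higher on the MLLT10/AF10, DOT1L, and p300 arrays than on the other 3, and UTP15 was highest on the BRG1 array.

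Of the large-subunit factors in HEK293T cells, BOP1 had levels of 0.54, 0.90, 1.01, 1.05, 0.80, and 0.83. PES1 had 2.21, 2.51, 2.51, 2.41, 2.45, and 2.63. WDR12 had −0.27, −0.19, −0.01, −0.09, 0.03, and −0.08. All 3 genes of this complex were lowest in control medium. NOP2 had 0.29, 0.51, 0.49, 0.58, 0.59, and 0.43. PPAN had 0.70, 0.87, 1.16, 1.16, 1.11, and 1.22. NIP7 had 0.43, 0.33, 0.48, 0.57, 0.75, and 0.57. NOP2 and PPAN were also lowest in control medium, and NIP7 was lowest on the Wnt3A si-control array. In the RNA polymerase I group, POLR1A had 0.41, 0.50, 1.11, 1.05, 0.81, and 0.83. POLR1B had 0.61, 0.73, 0.74, 0.73, 0.56, and 0.71. RRN3 had 1.11, 0.97, 1.02, 0.98, 1.65, and 1.11. By these ratios POLR1A was lower on both si-control arrays than on the 4 depletion arrays, and RRN3 stood apart on the BRG1 array. Against the Wnt3A si-control array, the sample and reference channels of POLR1A changed by −0.47 and −0.74 on the BRG1 array. On the p300 array they changed by −0.43 and −0.75, so on both arrays the sample signal was lower. TCOF1 had 0.52, 0.92, 1.09, 0.99, 1.24, and 1.12. DDX21 had 1.17, 1.12, 1.16, 1.20, 1.20, and 1.12. TCOF1 was lowest in control medium, and DDX21 had the smallest spread of all 39 genes over the 6 arrays.

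Between the lines, the set stood at a median of 0.51 over the reference RNA in si-control Ls174T cells and of 0.64 in HEK293T cells in control medium. All genes had medians of 0.20 and 0.22 there. Above the reference RNA were 31 of 39 genes in Ls174T cells, against 56.8% of all genes, and 35 of 39 in HEK293T cells, against 59.6%. The Ls174T minus HEK293T difference had a median of −0.13. DDX21 (−1.89) and DDX10 (−1.53), both RNA helicases, were lower in Ls174T cells by more than 2-fold, as were 17.4% of all genes, and IMP4 (0.98), a component of the early small-subunit complex, was the highest. The 2 arrays are on different slides.

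The remaining ribosome genes were read from lists named by function. Of the 95 other ribosome biogenesis factors, 85 were measured on the pair and 93 on the reference arrays. Their medians were −0.29 after β-catenin depletion (78 of 85 below 0, against 50.8% of all genes) and −0.21 after p300 depletion (84 of 93, against 45.5%). Past 1.5-fold, 12 of the 85 were lower after β-catenin depletion (6.53% of all genes were), with LYAR the lowest (−0.88), and 1 of the 93, PAK1IP1 (−0.66), after p300 depletion (4.35% of all genes). In HEK293T cells after BRG1 depletion 11 of the 93 were higher, up to NUFIP1 (0.93), and 2 were lower, down to TBL3 (−0.94), against 7.48% and 13.2% of all genes. The other RNA polymerase I factors had medians of −0.54 (8 of 9 below 0, against 50.8% of all genes), with POLR1G, a polymerase subunit, the lowest (−0.89), and −0.15 (7 of 11, against 45.5%). The 79 cytosolic ribosomal proteins, the building blocks of the ribosome itself, had medians of −0.10 (64 of 79 below 0, against 50.8% of all genes) and −0.03 (48 of 79, against 45.5%). Not 1 of them was lower past 1.5-fold in these 2 comparisons (0 of 79). In both comparisons their median lay closer to 0 than those of the assembly factors. After MLLT10/AF10 and BRG1 depletion in Ls174T cells these 3 lists had medians between −0.03 and 0.07.

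**Figure D5:**
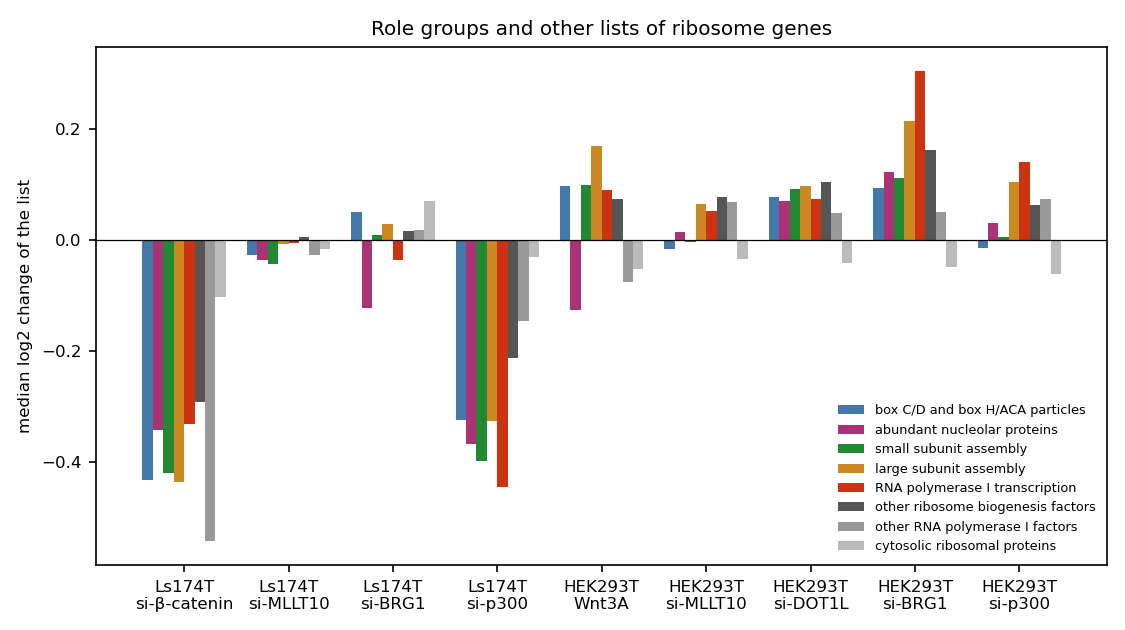
Median log2 change of the 5 role groups (colored bars) and of 3 other lists of ribosome genes (grey bars) in the 9 comparisons. After β-catenin and p300 depletion in Ls174T cells the role groups lie between −0.45 and −0.32, and the cytosolic ribosomal proteins at −0.10 and −0.03.

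The genes with and without the E-box had overlapping changes. After β-catenin depletion the 13 measured genes with it had a median of −0.40 (−0.60 to −0.01) and the 18 without it −0.48 (−0.64 to −0.06). After p300 depletion the medians were −0.35 for 14 genes with it (−0.95 to −0.17) and −0.38 for 18 without it (−0.70 to 0.04). The ranges overlapped in both comparisons. The 10 genes whose windows are shown above had pair means from −0.60 (WDR43) to −0.19 (PES1). After Wnt3A in HEK293T cells the medians were 0.16 and 0.08, again with overlapping ranges.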

How the data were processed

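RNA of 12 arrays was compared as described above, with 1 array per condition and the dye-exchanged β-catenin pair counted as 1 replicate. The authors read the arrays with the Agilent Feature Extraction program (10.5.1.1 in the file headers, 8.5.1.1 in the submitters' processing notes). The intensities that the authors deposited are, for both channels, median signal, local background, and a processed signal after background subtraction and dye normalization by the program. The deposited log10 ratios compare processed Cy5 with processed Cy3 signal and carry an error from the program. The deposited value table of the same arrays, used as an alternative, holds the same ratios.

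These ratios were put on the log2 scale with the sample RNA as numerator, against reference RNA or, on the pair, against si-control RNA (array 1 as given, array 2 with the sign turned). The labels, not the methods, name si-control RNA as the second channel of the pair. Each depletion was compared with the si-control array of its line (in HEK293T cells the one with Wnt3A), and Wnt3A with control medium. Features with either channel more than 2-fold above local background on all 10 reference arrays, or on both arrays of the pair, were kept, and outlier features were left out. Spots were averaged per probe and probes per gene. Symbols came from unversioned RefSeq accessions and a RefSeq gene table (GRCh38.p14), which matched 27612 of 29084 features (94.9%). Errors are the program's, combined over arrays and probes. The fold thresholds were 2 in Ls174T and 1.5 in HEK293T cells, as the study used for β-catenin depletion and for Wnt3A.

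The genes and lists were chosen with earlier results of these data known. The named genes are those given array by array, the genes past a threshold, the 2 highest and the 2 lowest per comparison, the siRNA targets, and MYC. Alternatives were array centring, the sample channel alone scaled to its 75th percentile, normexp (offset 50) and loess in limma 3.58.1, the value table, other filters, 1 probe per gene, outliers kept, other thresholds, each array of the pair, and the control medium array as control. The counts below 0 were added as a result after the values were seen. Python 3.11.15, numpy 2.4.6, pandas 2.3.3, and R 4.3.3 were used, and the steps were tested on simulated data. The number of arrays limits the precision, and no p-values were calculated.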

Additional observations from a re-analysis of the deposited data

Results flagged for a closer look

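The depletion of 1 protein gave medians of opposite sign in the 2 cell lines for 3 siRNAs. The median change of the ribosome biogenesis genes was −0.36 in Ls174T cells and 0.05 in HEK293T cells after p300 depletion, −0.030 and 0.15 after BRG1 depletion, and −0.032 and 0.030 after MLLT10/AF10 depletion. Over all genes these medians were 0.04 and 0.01, −0.004 and −0.01, and −0.007 and 0.0003. Only the Ls174T p300 median was larger than the median program error of single genes (0.29 to 0.30). The MLLT10/AF10 medians and the Ls174T BRG1 median were so close to 0 that their signs cannot be read as opposite responses. The difference between the lines was not tested, since each line has 1 array per condition. Medium and induction also differ between the lines. Of single genes, 3 changed by more than the program error in opposite directions after p300 depletion, namely NPM1 (−0.37 in Ls174T and 0.21 in HEK293T cells), NOP14 (−0.95 and 0.61), and PPAN (−0.50 and 0.35). These differences were not tested either, and such cases were not counted over all genes. For NOP14 the reference channel changed by 0.63 in the Ls174T and by −0.56 in the HEK293T comparison, against −0.31 and 0.03 in the sample channel. For NPM1 the reference channel changed by 0.37 and −0.70, against 0.02 and −0.51 in the sample channel. For PPAN the reference channel changed by 0.001 and −0.14, against −0.48 and 0.20 in the sample channel.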

How the results depend on the processing

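No paired analysis was possible because each condition is 1 culture, the β-catenin pair holding the same RNAs on both arrays, so that no groups share 2 replicate numbers. Over 270 alternative medians and counts, 245 stayed close to the value reported (medians within the program error of single genes, counts within 1.5 times). Outside the pair that error had a median of 0.29 to 0.30. Every HEK293T median and the Ls174T MLLT10/AF10 and BRG1 medians were smaller than it. For those medians the criterion could hardly fail, so it cannot show that they are stable. The direction of single genes was not followed across the alternatives. The median after β-catenin depletion ran from −0.43 to −0.37 and after p300 depletion in Ls174T cells from −0.45 to −0.35. With normexp the median of all genes went from 0.02 to −0.16 for Wnt3A and from −0.01 to 0.11 for HEK293T BRG1 depletion, and with centring from −0.0041 to −0.15 for Ls174T BRG1 depletion. In the last of these the median of the ribosome biogenesis genes ran from −0.17 to 0.02 and changed sign in 2 of 9 alternatives. For Wnt3A it changed sign in 1 of 9 alternatives (−0.01 with normexp).

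Genes below 0 numbered 22 for Wnt3A with normexp, 32 for Ls174T BRG1 depletion with centring, and, with the control medium array as control, 5, 3, and 9 for BRG1, DOT1L, and p300 depletion in HEK293T cells. Past the threshold, normexp gave 2 genes for Wnt3A, 0 for MLLT10/AF10 and p300 depletion in HEK293T cells, and 1 each for BRG1 and p300 depletion in Ls174T cells. The sample channel alone gave 1 gene, NPM1, for Wnt3A (higher) and for DOT1L and MLLT10/AF10 depletion (lower), and 0 for p300 depletion in HEK293T cells. The control medium array as control gave 2 for BRG1 and 1 each for DOT1L and MLLT10/AF10 depletion. Without a filter 1 gene passed for DOT1L, with the brightest probe 2 for p300 depletion in HEK293T cells, and with centring 1 for p300 depletion in Ls174T cells. At 2-fold, 0 passed for BRG1, MLLT10/AF10, and p300 depletion in HEK293T cells, and at 1.5-fold 3 each for β-catenin and p300 depletion in Ls174T cells. The causes were not tested.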
